A study of Homo sapiens with 6 samples.

Results

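The mitochondrial import, cristae-organising and membrane-dynamics genes comprised 48 protein-coding genes of the 61852 genes counted. They were chosen by symbol alone: every protein-coding gene named TIMM, TOMM, GRPEL, MICOS or CHCHD followed by its number, together with PAM16, SAMM50, IMMT, OPA1, MFN1, MFN2, DNM1L, FIS1 and MFF. The rule also took in TIMMDC1, which shares the name but is known as an assembly factor of respiratory complex I. The cells were MEG-01, an established human megakaryoblastic leukaemia line. The control group carried the pLKO.1 control vector, a lentiviral plasmid (n = 3), and the knockdown group carried sh2-MELK, a short hairpin RNA against the kinase MELK (n = 3). No other treatment is labelled, and both groups were labelled as the same batch and described by the submitters as independent biological replicates. MELK was targeted with 1 hairpin only, so an effect of that hairpin sequence and an effect of lower MELK cannot be told apart.

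Nearly all mitochondrial proteins are encoded in the nucleus and enter the organelle through the TOM complex of the outer membrane. From there the TIM23 complex and its ATP-driven motor take proteins with a presequence into the matrix, the small TIM chaperones and the TIM22 complex place carrier proteins in the inner membrane, and SAMM50 inserts barrel proteins in the outer membrane. The MICOS complex shapes the cristae, and dynamin-related GTPases fuse (MFN1, MFN2, OPA1) and divide (DNM1L) the mitochondria.

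Library totals ran from 18945176 to 21711313 counts. MELK itself had 219, 206 and 238 counts in the controls and 16, 124 and 26 with the hairpin, so all knockdown libraries were below all controls. The fitted log2 change was -1.98 ± 0.69 (SE; edgeR adjusted p = 0.104) and did not pass the threshold of 0.05; without knockdown library 2 it was -3.32 (edgeR adjusted p = 0.00271). Of the 61852 genes, 35797 (57.9%) held nothing but the values 0, 1, 2, 10 and 100 in all 6 libraries, so the deposited counts behave as if 1 of these numbers had been added to each value. Such an addition has an SD of 38.9 counts, and counts near or below 100 cannot be read as expression. Of the megakaryoblast markers, 7 of 10 had a mean of at least 100 counts, while PF4 held only such added values. Of the 9 tested, 5 fell (ITGA2B, GATA1, NFE2, ITGB3 and GP1BA), 2 rose (TAL1, from 567.8 to 1041 CPM, and FLI1; CPM are counts relative to library totals scaled by the trimmed mean of M values) and 2 did not pass. ITGA2B, the most abundant, went from 2024 to 1061 CPM. The summed level of the megakaryoblast markers was 3193 to 3298 CPM in the controls and 2546 to 2629 in the knockdown libraries. The fall of ITGA2B alone was larger than the fall of this sum, so the sum does not describe the other markers. The 6 epithelial and stromal markers summed to 73.3 to 81.6 CPM in the controls and 93.2 to 98.0 in the knockdown libraries, with 1 of 5 tested (KRT18) higher. The 6 lymphocyte markers summed to 2.79 to 8.46 and 8.22 to 17.8 CPM, with none at a mean of 100 counts. The part of these markers in the results below was not tested, and in bulk RNA fewer cells of a type and less RNA per cell cannot be told apart.

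The import and dynamics genes moved in both directions and mostly by small amounts. Of the 45 that entered the test, 12 rose and 7 fell in the knockdown cells at an edgeR adjusted p under 0.05, and 26 did not pass; that is 42.2% called. Over all 28303 genes tested, 16.5% were called, 8.12% higher and 8.43% lower, but 8895 of those genes held only added values. A fairer background is the 5038 genes averaging 500 counts or more, of which 68.0% were called, 32.5% higher and 35.5% lower. Of the 31 members at that level, 11 rose and 6 fell (54.8% called, 35.5% higher and 19.4% lower). The median of their log2 fold changes was 0.07, beside -0.02 for the 5038 genes, and the median of the absolute values was 0.22, beside 0.35. In 28 of the 31 the change was smaller than 1.5-fold. The 3 knockdown libraries lay wholly outside the range of the 3 controls for 20 of the 31 members (64.5%), and for 79.2% of the 5038 genes. With scaling by library total alone, 15 members were higher and 5 lower.

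**Figure D1:**
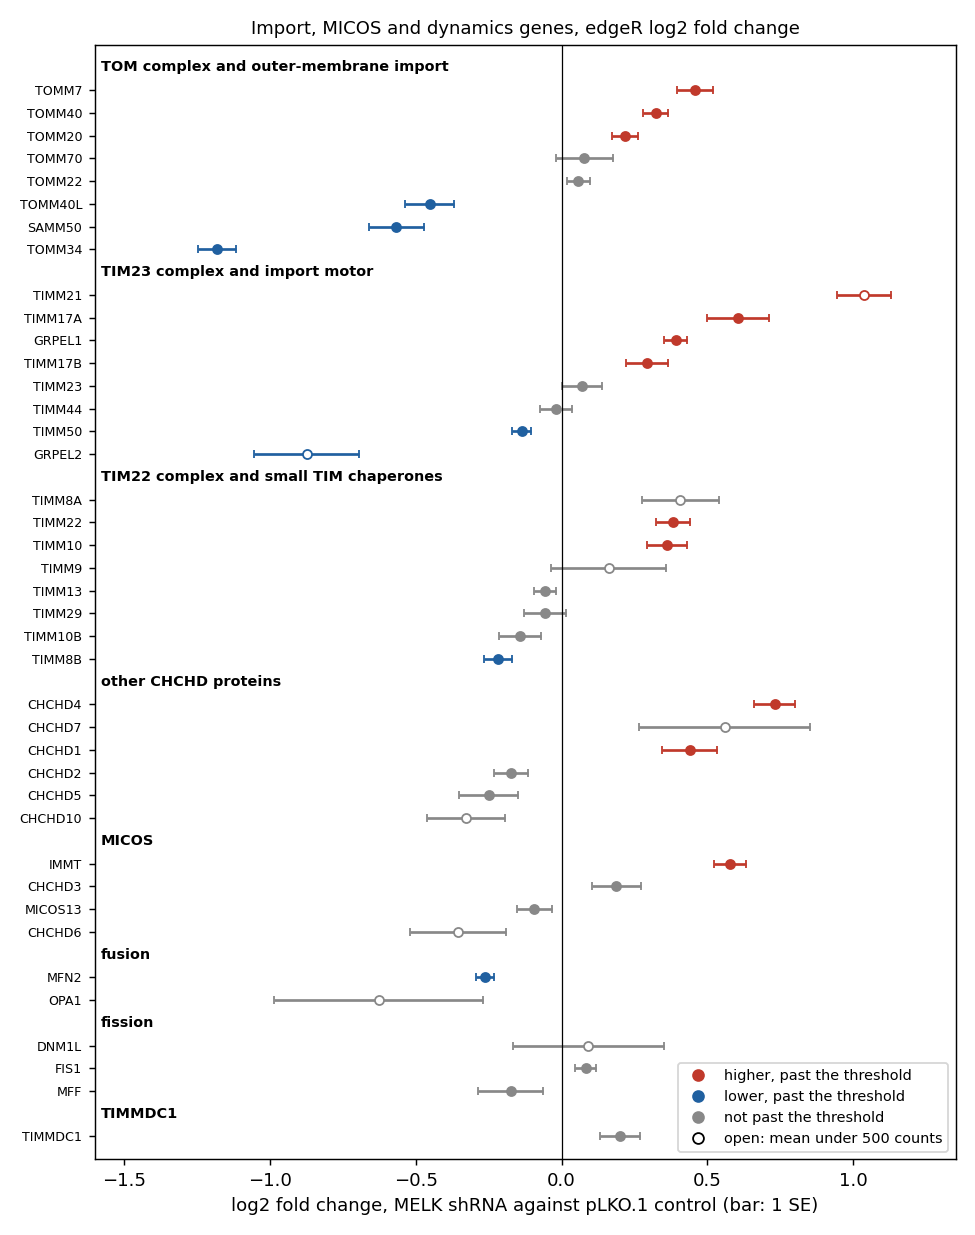
Log2 fold change (x axis, knockdown against control, bar 1 SE) of the members averaging 100 counts or more, grouped by role. Filled points are the 31 members averaging 500 counts or more and open points the 9 between 100 and 500; TOMM34 lies lowest at -1.18 and TIMM21 highest at 1.04.

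The other 17 members were read less firmly. Of these, 9 had means of 100 to 500 counts, where the added numbers matter, and 8 had means under 100. Among the 8, TOMM6 (1, 100 and 10 counts in the controls, 0, 100 and 2 in the knockdown) and MICOS10-NBL1 held only added values. TOMM5 had 15, 11 and 105 counts in the controls and 8, 9 and 110 in the knockdown libraries, so its spread within a group exceeded any difference. TOMM6, a small TOM subunit, has 100% of its exonic bases inside other annotated genes, and how reads on shared bases were counted is not given in these sources. The fold changes of these 8 are not interpreted.

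Per kilobase of exon, CHCHD2, a twin-cysteine protein of the intermembrane space, had the highest level of the members, at 548.5 ± 42.9 CPM per kilobase in the controls (SD, n = 3). TOMM40, the import channel of the outer membrane, followed at 89.0 ± 3.85, and TIMM10, a small TIM chaperone, at 83.7 ± 5.06; these neighbours differed by about their spread. MFN2 stood at 72.9 ± 1.72, TIMM8B at 67.1 ± 2.12, TOMM22 at 61.6 ± 2.15 and FIS1 at 59.4 ± 1.03 CPM per kilobase. In the knockdown cells CHCHD2 was still first at 486.6, while TOMM40 (111.2 ± 4.77) and TIMM10 (107.5 ± 8.13) were within their spread of each other. The length used was that of the merged exons of all annotated transcripts of a gene. For TIMM10 it was 777 bases against a mean transcript length of 565, but for TIMM50 6911 against 1110. The order of the members after CHCHD2, TIMM50 included, therefore depends on the length used.

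At the outer membrane, 3 of the 9 genes tested rose (TOMM7, TOMM40 and TOMM20), 3 fell (TOMM34, SAMM50 and TOMM40L) and 3 did not pass. The largest change was in TOMM34, a cytosolic co-chaperone that binds HSP70 and HSP90 and keeps precursors import-competent (ENSG00000025772.8, GRCh38 chromosome 20, 44942130 to 44960486). It had 1338, 1363 and 1267 counts in the controls and 590, 591 and 529 in the knockdown libraries. No knockdown library reached the controls. Its level fell from 66.0 ± 4.49 to 29.1 ± 0.978 CPM (SD, n = 3 each), or -1.18 ± 0.06 in log2 terms (SE; edgeR adjusted p = 6.02e-06). SAMM50, the core of the sorting and assembly machinery for barrel proteins (chromosome 22, 43955421 to 44010531), had 1068, 1079 and 1249 counts in the controls and 686, 872 and 683 in the knockdown libraries. The groups did not overlap, and its log2 fold change was -0.57 ± 0.10 (edgeR adjusted p = 0.00343). TOMM40L, a paralogue of the import channel, had 670, 721 and 641 counts in the controls and 489, 503 and 460 in the knockdown libraries, and it too fell without overlap (log2 fold change -0.45 ± 0.08, edgeR adjusted p = 0.00643).

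The channel itself and 2 further subunits rose. TOMM40 had 6739, 5878 and 6728 counts in the controls and 8050, 8334 and 7207 in the knockdown libraries, rising from 321.2 ± 13.9 to 401.5 ± 17.2 CPM (log2 fold change 0.32 ± 0.04, edgeR adjusted p = 0.00103). TOMM7, a small subunit that modulates the stability of the complex and is needed for PINK1 to accumulate there, rose from 63.0 ± 3.51 to 86.4 ± 5.26 CPM (0.46 ± 0.06, edgeR adjusted p = 0.000993). In both genes every knockdown library was above every control. TOMM20, a presequence receptor, had 2159, 2214 and 2367 counts in the controls and 2507, 2646 and 2498 in the knockdown libraries (log2 fold change 0.22 ± 0.04, edgeR adjusted p = 0.00966). That call was lost without knockdown library 2 (edgeR adjusted p = 0.0532) or 3 (0.0513), and after the trend with GC content and length was removed TOMM20 was lower instead, at -0.22 (edgeR adjusted p = 0.00952). TOMM22, the central receptor, had a log2 fold change of 0.06 ± 0.04 (edgeR adjusted p = 0.415). TOMM70, the receptor for carrier precursors, had 0.08 ± 0.10 (edgeR adjusted p = 0.783), and -0.48 with the trend removed (adjusted p = 0.00588).

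**Figure D2:**
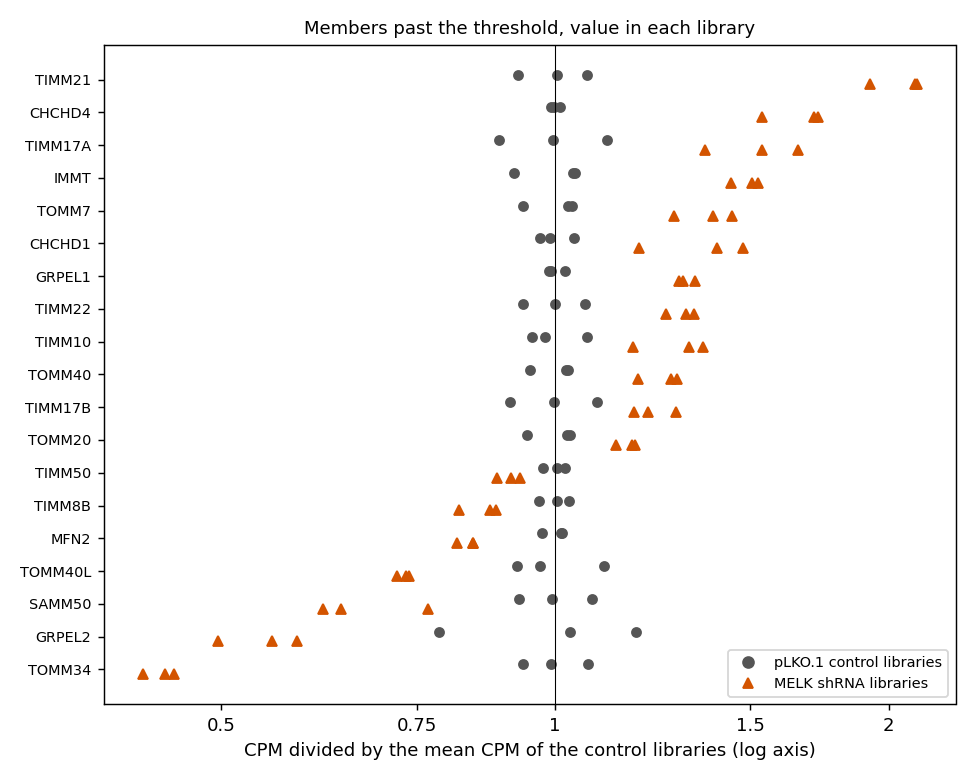
CPM of each library divided by the control mean (x axis, log scale) for the 19 members past the threshold; circles are the 3 control libraries and triangles the 3 knockdown libraries. The groups did not overlap in any of the 19 genes, which were selected by the test on these same libraries, so this is no further support. The separation was widest for TOMM34 and TIMM21.

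In the TIM23 complex and its motor, 4 of 10 genes rose and 2 fell. TIMM21, a subunit that links TIM23 to the TOM complex and to respiratory chain assembly (ENSG00000075336.12, chromosome 18, 74148511 to 74160530), had 293, 319 and 319 counts in the controls and 587, 661 and 618 in the knockdown libraries. Every knockdown value was above every control, and the level rose from 15.5 ± 1.11 to 31.8 ± 1.74 CPM (log2 fold change 1.04 ± 0.09, edgeR adjusted p = 7.8e-05). Its mean lay under 500 counts. TIMM17A, a stress-regulated channel subunit, had 444, 524 and 499 counts in the controls and 658, 814 and 708 in the knockdown libraries (0.60 ± 0.11, edgeR adjusted p = 0.00466). Its paralogue TIMM17B had 1241, 1070 and 1364 against 1456, 1576 and 1356 counts (0.29 ± 0.07, edgeR adjusted p = 0.0233), and that call was lost in the fits without control library 1 (adjusted p = 0.104), control 2 (0.0736), knockdown 1 (0.0894), knockdown 2 (0.117) and knockdown 3 (0.0588). With the GC and length trend removed TIMM17A was 0.19 (edgeR adjusted p = 0.133) and TIMM17B 0.45 (adjusted p = 0.00333).

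The nucleotide exchange factors of the import motor, which recycle the matrix HSP70, moved in opposite directions. GRPEL1, the main factor, had 1422, 1297 and 1386 counts in the controls and 1796, 1792 and 1665 in the knockdown libraries (log2 fold change 0.39 ± 0.04, edgeR adjusted p = 0.000142, or 0.18 with an adjusted p of 0.0805 once the GC and length trend was removed). GRPEL2, a paralogue described as redox-sensitive, had 260, 370 and 343 counts in the controls and 187, 162 and 170 in the knockdown libraries (-0.87 ± 0.18, edgeR adjusted p = 0.0109). All knockdown values were lower, but the call was lost without control library 2 (adjusted p = 0.0578) or 3 (0.0602) and without knockdown library 2 (0.0623) or 3 (0.0521). A model of reads plus an added number put GRPEL2 at -0.56 (95% interval -0.82 to -0.38). The model uses a replicate spread common to all genes, so this interval may be too narrow. TIMM50, the presequence receptor of TIM23, fell by 0.14 ± 0.03 on the log2 scale (edgeR adjusted p = 0.0187), from 345.1 ± 7.88 to 313.8 ± 7.59 CPM. That small change did not pass without control library 1 (adjusted p = 0.0599) or 3 (0.0833), without knockdown library 1 (0.0780) or 3 (0.0612), with scaling by library total (-0.06, adjusted p = 0.195) or with the GC and length trend removed (-0.06, adjusted p = 0.441). TIMM23, the channel, had 0.07 ± 0.07 (edgeR adjusted p = 0.639) and TIMM44, which anchors HSP70, -0.02 ± 0.05 (adjusted p = 0.923).

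**Figure D3:**
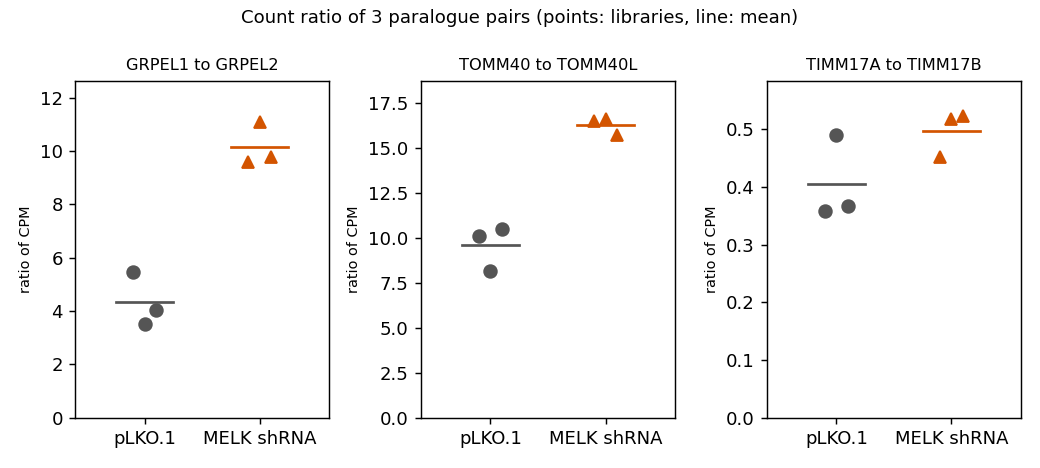
Ratio of CPM (y axis from 0) between paralogues in each control (circle) and knockdown (triangle) library, with the mean as a line. GRPEL1 to GRPEL2 and TOMM40 to TOMM40L ratios were higher in all 3 knockdown libraries than in any control, as the values of the single genes required. The TIMM17A to TIMM17B ratios overlapped.

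The balance within paralogue pairs was followed as a ratio in each library. GRPEL1 to GRPEL2 was 5.47, 3.50 and 4.04 in the controls and 9.60, 11.1 and 9.79 in the knockdown libraries, a difference of 1.25 in the mean log2 ratio. TOMM40 to TOMM40L was 10.1, 8.15 and 10.5 against 16.5, 16.6 and 15.7, a difference of 0.77. Neither pair overlapped between groups, and the two-sided exact permutation p was 0.1 for each, the smallest that 3 against 3 libraries allow. Both outcomes were fixed by the single genes: in every knockdown library GRPEL1 and TOMM40 lay above, and GRPEL2 and TOMM40L below, all their controls. The ratios of these pairs therefore add no separate test. TIMM17A to TIMM17B was 0.358, 0.490 and 0.366 against 0.452, 0.517 and 0.522, which overlapped (exact permutation p = 0.2). These ratios of counts are not corrected for gene length, so only their change between groups is compared.

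Among the TIM22 complex and the small TIM chaperones, 2 of 8 rose and 1 fell. TIMM22, the carrier-inserting channel, had 1103, 978 and 972 counts in the controls and 1313, 1286 and 1279 in the knockdown libraries, without overlap (log2 fold change 0.38 ± 0.06, edgeR adjusted p = 0.00212). TIMM10, the partner of TIMM9 in the main intermembrane-space chaperone, had 1299, 1193 and 1423 against 1691, 1778 and 1441 counts (0.36 ± 0.07, edgeR adjusted p = 0.00671), with 1423 and 1441 the closest pair. Leaving out control library 1 or 2 brought its adjusted p to 0.0507 and 0.0503. TIMM8B, which works with TIMM13, had 1545, 1514 and 1652 against 1349, 1290 and 1307 counts (-0.22 ± 0.05, edgeR adjusted p = 0.0149). Its call was lost without control library 2 (adjusted p = 0.0695) or 3 (0.0851), without knockdown library 2 (0.0540) and with scaling by library total (-0.15, adjusted p = 0.108). Of the exonic bases of TIMM8B, 32.3% lie inside other annotated genes, on the opposite strand. Shared bases also made up 30.5% in TIMM9, 29.2% in TIMMDC1, 28.9% in TIMM13 and 20.2% in TOMM40L. How reads on such bases were counted is not given, and their part in these counts was not tested.

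The remaining small TIMs did not pass. TIMM9 had 220, 267 and 341 counts in the controls and 252, 360 and 292 in the knockdown libraries (0.16 ± 0.20, edgeR adjusted p = 0.763), and the groups overlapped, so its partner TIMM10 rose while a change of TIMM9 was not resolved at that depth; the difference between the 2 genes was not tested. TIMM8A, the gene of the deafness-dystonia syndrome, had 291, 270 and 364 against 433, 379 and 382 counts (0.41 ± 0.13, edgeR adjusted p = 0.0847), with every knockdown library above every control, and it passed without control library 3 (0.53, adjusted p = 0.0375). TIMM13, TIMM29 and TIMM10B lay between -0.06 and -0.14 on the log2 scale, each with overlapping groups.

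The CHCHD proteins share a fold held by paired cysteines, formed when CHCHD4 oxidises them. CHCHD4 itself, the import receptor and oxidoreductase of the intermembrane space (ENSG00000163528.13, chromosome 3, 14112077 to 14124870), had 528, 489 and 524 counts in the controls and 776, 883 and 835 in the knockdown libraries. It rose in every knockdown library, from 25.6 ± 0.241 to 42.5 ± 2.71 CPM (log2 fold change 0.73 ± 0.07, edgeR adjusted p = 0.00012). CHCHD1, a mitochondrial ribosome protein, had 502, 484 and 541 against 595, 715 and 707 counts (0.44 ± 0.09, edgeR adjusted p = 0.0127), but its call was lost without control library 1 (adjusted p = 0.0544) or 2 (0.0550), without knockdown library 2 (0.0680) or 3 (0.0584) and with the GC and length trend removed (0.12, adjusted p = 0.299). CHCHD2, the highest member per kilobase, had 13692, 11912 and 11759 against 10445, 11018 and 10849 counts (-0.17 ± 0.06, edgeR adjusted p = 0.0867), passing without control library 3 (-0.22, adjusted p = 0.0374). CHCHD5, CHCHD7 and CHCHD10 did not pass, and CHCHD10 in particular had -0.33 ± 0.13 (edgeR adjusted p = 0.175).

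In MICOS, IMMT alone passed the test. IMMT encodes mitofilin, the large scaffold of cristae junctions (ENSG00000132305.22, chromosome 2, 86143932 to 86195770), and had 1797, 1924 and 2039 counts in the controls and 2721, 2937 and 2723 in the knockdown libraries. The groups were far apart, with levels of 95.8 ± 6.74 and 142.8 ± 4.15 CPM (log2 fold change 0.58 ± 0.06, edgeR adjusted p = 0.000134; 0.32 with the GC and length trend removed, adjusted p = 0.000883). CHCHD3, which joins MICOS to SAMM50, had 770, 858 and 946 against 1019, 943 and 900 counts (0.19 ± 0.08, edgeR adjusted p = 0.229). MICOS13 had 1492, 1409 and 1465 against 1269, 1317 and 1400 counts (-0.09 ± 0.06, edgeR adjusted p = 0.403). CHCHD6 had 437, 358 and 467 against 399, 305 and 259 counts (-0.35 ± 0.16, edgeR adjusted p = 0.251), and the groups overlapped. MICOS10 had 127, 28 and 24 against 121, 29 and 34 counts and is not interpreted.

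Among the fusion and fission GTPases and their adaptors, MFN2 was the only gene to pass. MFN2, the mitofusin that also tethers mitochondria to the endoplasmic reticulum (ENSG00000116688.18, chromosome 1, 11980181 to 12013514), had 7204, 7069 and 7547 counts in the controls and 6023, 6159 and 5588 in the knockdown libraries. All knockdown values were lower, and the level fell from 362.7 ± 8.53 to 302.6 ± 5.61 CPM (log2 fold change -0.26 ± 0.03, edgeR adjusted p = 0.000398). Its paralogue MFN1 had 70, 36 and 42 against 86, 165 and 54 counts (1.07 ± 0.75, edgeR adjusted p = 0.452), values the added numbers dominate. OPA1, the inner-membrane fusion GTPase, had 229, 138 and 230 against 104, 86 and 182 counts (-0.63 ± 0.36, edgeR adjusted p = 0.358). The groups overlapped, and the model with an added number gave OPA1 -0.53 (95% interval -0.78 to -0.29). That interval uses a replicate spread common to all genes, not that of OPA1 itself, and may be too narrow.

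On the fission side no gene passed. FIS1, an outer-membrane adaptor, had 2210, 2062 and 2144 counts in the controls and 2245, 2233 and 2147 in the knockdown libraries (0.08 ± 0.04, edgeR adjusted p = 0.194), and its CPM values did not overlap between groups while its raw counts did. MFF, the main receptor that recruits the fission GTPase, had 828, 921 and 902 against 699, 724 and 866 counts (-0.17 ± 0.11, edgeR adjusted p = 0.403). DNM1L, that GTPase, had 205, 152 and 238 against 165, 284 and 170 counts (0.09 ± 0.26, edgeR adjusted p = 0.93). With the GC and length trend removed FIS1 was 0.31 (edgeR adjusted p = 0.000989) and MFF -0.46 (adjusted p = 0.00178), and both passed. TIMMDC1 had a log2 fold change of 0.20 ± 0.07 (edgeR adjusted p = 0.101).

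The fold changes of all well-measured genes followed GC content. Over 5031 genes the Spearman rho between GC content and log2 fold change was -0.41, and over the 31 members it was -0.32; genes share their libraries, so this is a description. The median GC content was 49.0% for the members that rose, 53.3% for those that fell and 51.5% for those that did not pass. When the trend of each library with GC content and length was removed, 10 members were higher and 8 lower, and 12 of the 17 called members kept both call and direction. Over the 31 members the rho with GC content was then 0.30, so among them the trend was turned round and not ended. Calls and signs that changed with the removal are to be read with that limit. The 5 called members that did not keep both call and direction were TOMM20, TIMM17A, GRPEL1, CHCHD1 and TIMM50. MICOS13 and TIMM13, which had not passed, were then higher at 0.19 (edgeR adjusted p = 0.0445) and 0.23 (adjusted p = 0.00966). TOMM34, SAMM50, TOMM40, TOMM40L, TOMM7, TIMM22, CHCHD4, IMMT and MFN2 kept call and direction under every setting run, as did TIMM21 where it was tested. The part of GC content in the results was not tested beyond these values.

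**Figure D4:**
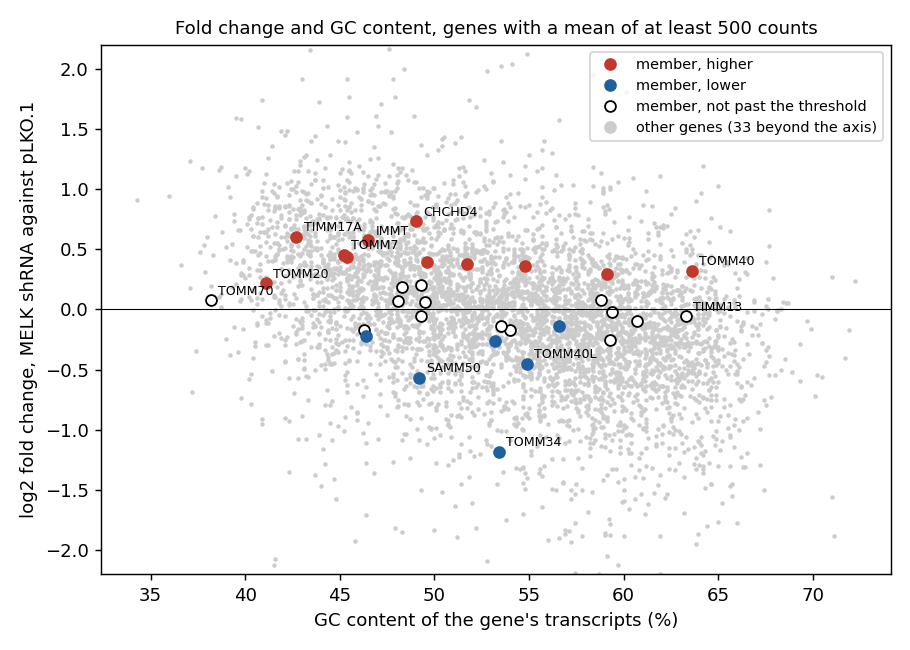
Log2 fold change (y axis) against GC content of the transcripts (x axis, percent) for genes averaging 500 counts or more; grey points are other genes and large points the 31 members by call. Values fall with rising GC content (rho -0.41), and TOMM40 stands above the trend at high GC content.

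**Figure D5:**
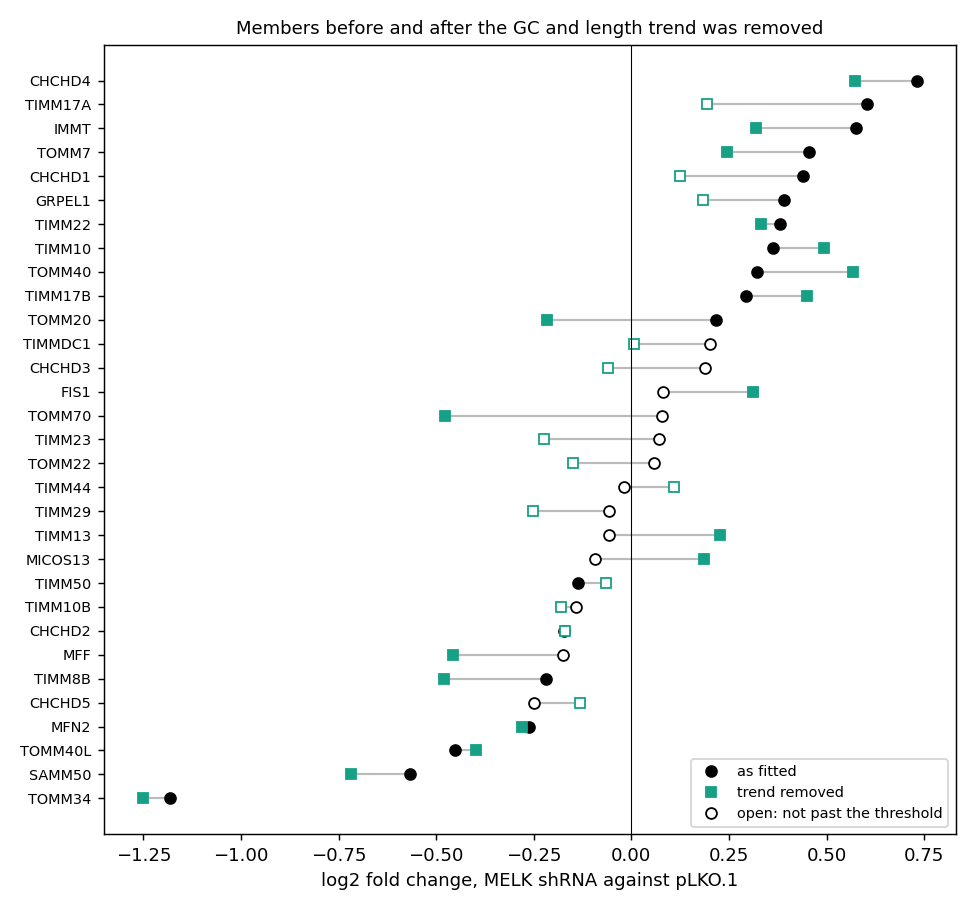
Log2 fold change (x axis) of the 31 members as fitted (circle) and with the GC and length trend removed (square); open symbols did not pass the threshold. TOMM20 crosses 0, from 0.22 to -0.22, whereas TOMM34 stays at the far low end.

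The partners of these genes were counted over whole lists, and those named are the ones with the largest changes past the threshold. As a background, 16.5% of all genes tested were called, and 68.0% of those averaging 500 counts or more. Of 24 import, insertion and presequence-processing partners, 9 rose, 4 fell and 11 did not pass. Of the 14 averaging 500 counts or more, 8 rose, 4 fell and 2 did not pass. The chaperone HSPA9, the matrix HSP70 that GRPEL1 and GRPEL2 serve, had 3703, 3883 and 4215 counts in the controls and 7556, 7837 and 7624 in the knockdown libraries (log2 fold change 1.00 ± 0.05, edgeR adjusted p = 3.7e-06). The folding chaperonin HSPD1 rose by 1.19 ± 0.04 (edgeR adjusted p = 5.21e-07) and its lid HSPE1 by 1.61 ± 0.09 (adjusted p = 7.04e-06). In all 3 genes the groups were far apart. MTCH1, an insertase-related outer-membrane protein, rose by 0.89 ± 0.03 (edgeR adjusted p = 6.11e-07).

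Of 13 cristae partners 2 rose, 3 fell and 8 did not pass. Of the 7 averaging 500 counts or more, 1 rose, 2 fell and 4 did not pass. PHB2 and PHB1, the paired prohibitin scaffold subunits, had log2 fold changes of -0.41 ± 0.04 (edgeR adjusted p = 0.000259) and 0.16 ± 0.03 (adjusted p = 0.00472). ATAD3A, an inner-membrane ATPase, had -0.27 ± 0.03 (edgeR adjusted p = 0.000566), or -0.01 (adjusted p = 0.894) with the GC and length trend removed. Of 25 regulators of dynamics, 5 rose, 7 fell and 13 did not pass. Of the 12 averaging 500 counts or more, 2 rose, 6 fell and 4 did not pass. MIEF1, an outer-membrane receptor for DNM1L, fell by 0.89 ± 0.07 (edgeR adjusted p = 3.05e-05), and AFG3L2, a protease subunit of the inner membrane, rose by 0.75 ± 0.05 (adjusted p = 2.11e-05). MTFR1L fell by 0.41 ± 0.06 (edgeR adjusted p = 0.00101), and MIGA2 by 0.46 ± 0.08 (adjusted p = 0.00361), the latter at -0.24 (adjusted p = 0.0907) with the trend removed. Of 12 regulators of mitochondrial biogenesis, 3 rose, 3 fell and 6 did not pass. Of the 4 averaging 500 counts or more, 1 rose, 2 fell and 1 did not pass. The nuclear receptor ESRRA had -0.75 ± 0.05 (edgeR adjusted p = 1.09e-05), the coactivator PPRC1 -0.52 ± 0.04 (adjusted p = 4.59e-05) and the transcription factor YY1 0.72 ± 0.07 (adjusted p = 0.000215).

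Promoters were described for the 44 members with a RefSeq entry (GRCh38.p14), over 300 bases from 250 before to 50 after the start, on both strands. These nuclear genes are textbook targets of NRF1 and ETS-family factors, which is why those motifs were searched. The ETS core CCGGAAG occurred in 20 of 44 member promoters (45.5%) and in 14.2% of 15843 protein-coding promoters, and the NRF1 core GCGCATGCG in 4 of 44 (9.09%), in CHCHD4, OPA1, TIMM9 and TOMM7, against 2.76%. The YY1 motif AAGATGGC was in 2 (4.55% against 3.91%) and the E-box CACGTG in 3 (6.82% against 8.88%). Among members averaging 500 counts or more, 3 of the 14 with the ETS core rose and 1 fell, and 7 of the 15 without it rose and 4 fell. MICOS10 and MICOS10-NBL1, whose annotations overlap, both had the ETS core at -87 and were both counted. The 15843 promoters were not limited to genes expressed in these cells. A match describes letters in the window only.

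Of the members past the threshold, 7 had an NRF1 or ETS match in the promoter, and all 7 are shown so that those that rose and those that fell can be compared. Each stretch runs from 160 bases before to 10 after the RefSeq start, 5′ to 3′ on the gene's strand, with capitals for the NRF1 match in CHCHD4 and TOMM7 and the ETS core in the other genes, on either strand.
CHCHD4 (chr3:14124861-14125030, minus strand): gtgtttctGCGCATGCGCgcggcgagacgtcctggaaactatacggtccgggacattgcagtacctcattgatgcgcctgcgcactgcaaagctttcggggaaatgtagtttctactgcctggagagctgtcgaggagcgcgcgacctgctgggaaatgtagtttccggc
IMMT (chr2:86195453-86195622, minus strand): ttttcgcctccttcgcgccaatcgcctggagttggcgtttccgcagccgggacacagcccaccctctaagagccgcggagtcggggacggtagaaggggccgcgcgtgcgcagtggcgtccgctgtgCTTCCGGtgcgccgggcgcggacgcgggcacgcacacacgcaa
TOMM7 (chr7:22822840-22823009, minus strand): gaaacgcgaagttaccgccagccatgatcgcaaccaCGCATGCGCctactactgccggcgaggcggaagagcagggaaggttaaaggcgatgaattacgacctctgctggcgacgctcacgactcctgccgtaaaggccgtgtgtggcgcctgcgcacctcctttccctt
TIMM10 (chr11:57530745-57530914, minus strand): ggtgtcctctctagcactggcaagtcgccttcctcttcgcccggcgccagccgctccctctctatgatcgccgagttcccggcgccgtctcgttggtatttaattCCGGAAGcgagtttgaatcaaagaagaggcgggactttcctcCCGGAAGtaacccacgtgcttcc
TOMM20 (chr1:235128828-235128997, minus strand): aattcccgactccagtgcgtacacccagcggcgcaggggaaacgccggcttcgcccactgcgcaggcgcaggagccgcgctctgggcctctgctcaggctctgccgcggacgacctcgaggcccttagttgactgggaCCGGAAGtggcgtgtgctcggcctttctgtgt
GRPEL2 (chr5:149345339-149345508, plus strand): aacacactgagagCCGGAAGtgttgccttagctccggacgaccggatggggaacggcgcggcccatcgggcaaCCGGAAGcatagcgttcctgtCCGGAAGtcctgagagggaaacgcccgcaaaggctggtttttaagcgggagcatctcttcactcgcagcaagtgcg
TOMM34 (chr20:44960388-44960557, minus strand): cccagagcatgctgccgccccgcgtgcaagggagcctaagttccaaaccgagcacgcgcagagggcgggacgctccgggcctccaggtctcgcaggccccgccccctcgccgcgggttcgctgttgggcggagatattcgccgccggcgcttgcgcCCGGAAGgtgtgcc
Of these, CHCHD4, IMMT, TOMM7, TIMM10 and TOMM20 rose (5 of 7), although TOMM20 was -0.22 with the GC and length trend removed. GRPEL2, with 3 copies of the ETS core in this window, and TOMM34, with 1 copy across the start, fell. Of all 19 called members 12 rose, a share near that of these 7. The YY1 motif, in 4.55% of the members and 3.91% of all promoters searched, was found in TOMM40L and TIMM50, which both fell. The TIMM50 call was lost in 7 of 18 alternatives. Of the members averaging 500 counts or more, the 2 with the NRF1 core and the 2 with the E-box rose. Whether any motif bears on the direction of change was not tested.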

How the data were processed

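Poly(A) RNA libraries from MEG-01 cells were sequenced in paired-end mode, 3 carrying pLKO.1 and 3 sh2-MELK. The deposited values are counts per gene; per the submitters' processing notes the authors used STAR and HTSeq with GRCh38, after fastp and FastQC; for the annotation release and the strand setting, nothing is stated in these sources. Symbols were matched for 61803 genes (99.9%), and positions, GC content and length came from GENCODE 29.

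All genes passing filterByExpr (minimum count 10) were fitted with edgeR 4.0.16 (TMM scaling, robust quasi-likelihood test, R 4.3.3), with Benjamini-Hochberg adjustment over 28303 genes and a threshold of 0.05. The SE is the absolute log2 fold change divided by the square root of F. The fit was also run on simulated data, with changes planted in a small set of genes and the same replicate spread for every gene. In these data 68.0% of the genes averaging 500 counts or more were called. The simulation therefore does not show how the scaling and the fit behave under such wide changes. Depth was 18945176 to 21711313 counts per library. Replicates are independent biological ones per the labels, of origin not further described. Alternatives used other scalings and filters, DESeq2 1.42.0, limma 3.58.1 (voom), removal of a trend with GC content and length (5031 genes), a replicate block, each library left out, and a model of each count as reads plus an added number of 0, 1, 2, 10 or 100. The added-number model gave every gene the same dispersion, 0.00125, taken from 612 genes averaging at least 5000 counts. Its intervals and p-values therefore leave out the replicate spread of the single gene. Members and lists were chosen with earlier results of these data known. Every member could be named; of each partner list, up to 4 genes with the largest change among those past the threshold at a mean of at least 500 counts were named. Markers of megakaryoblasts, lymphocytes, and epithelium and stroma were listed too.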

Additional observations from a re-analysis of the deposited data

How the results depend on the processing

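Of the 19 called members, 10 kept their call and direction under each of the 18 alternatives that gave a value, and 7 lost the call in at least 1 fit with a library left out. Leaving out a library gave 9 to 13 members higher, 5 to 6 lower and 3808 to 4064 genes past the threshold; MELK ranged from -3.32 to -1.54. With the model of an added number, 17 members were higher and 14 lower, and 9547 genes passed. These counts rest on a replicate spread common to all genes and may be too high. MELK passed the threshold with no filter (-1.98), at least 5 CPM in 3 libraries (-1.99), limma-voom (-2.48) and the added-number model (-3.39). DESeq2 called 14 members higher and 8 lower.

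With the replicate number as a block, 11 members were higher, 6 lower, and 2062 genes were higher and 2120 lower over the table; TIMM17B (0.29) and TIMM50 (-0.14) lost the call. Same-numbered libraries deviated with correlations of 0.0998, -0.0124 and -0.0801, and 2 of 6 libraries correlated best with their own number. No strong shared deviation by number was seen, but these values cannot tell whether same-numbered libraries were prepared together.

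Signs turned, with causes not tested, for these log2 fold changes. With the GC and length trend removed, CHCHD3 was -0.061, MICOS13 0.19, TIMM13 0.23, TIMM23 -0.22, TIMM44 0.11, TOMM20 -0.22, TOMM22 -0.15 and TOMM70 -0.48. With scaling by library total, TIMM13 was 0.016, TIMM29 0.015 and TIMM44 0.053. DNM1L was -0.15 in the added-number model, and TOMM5 -0.42 with voom and -0.33 with the block. With a library left out, DNM1L ran from -0.18 to 0.235, MICOS10 from -0.86 to 1.26, TIMM44 from -0.056 to 0.035 and TOMM5 from -2.31 to 1.765. Members with under 100 counts are limited by the added numbers, whatever the test. The fit limited to genes averaging 500 counts and the GC and length removal gave no value for MELK or for the 17 members below that level.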

Other observations

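The 5 partners averaging under 500 counts with the largest changes past the threshold lie outside the naming rule and were chosen after their values were seen. TFAM, which packages mitochondrial DNA and helps to start its transcription, had 189, 143 and 243 counts in the controls and 37, 31 and 39 in the knockdown libraries. TFB2M, a partner of the mitochondrial RNA polymerase in starting transcription, went the other way, with 211, 134 and 150 against 296, 452 and 437 counts. TAFAZZIN, the cardiolipin-remodelling acyltransferase, had 200, 289 and 278 against 88, 92 and 90 counts. IMMP2L, a subunit of the inner-membrane peptidase, had 133, 154 and 160 against 245, 384 and 372 counts, and MTFR1 222, 211 and 247 against 482, 512 and 419. In all 5 genes the groups did not overlap, which is no further support because they were picked for their large changes. At these counts an added 100 would be a large part of the value.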
